A study of Mus musculus with 13 samples.

Results

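The genes described here encode the apical-basal polarity complexes of the PAR, atypical protein kinase C (aPKC) and Crumbs families, measured in mouse kidney glomeruli. Members were taken by symbol from the deposited expression table: *Pard3*, *Pard3b*, *Pard6b*, *Pard6g*, *Prkci*, *Prkcz*, *Pals1*, *Patj*, *Crb2* and *Llgl1*. All 10 were present among 35967 gene symbols, and all 10 were among the 14322 genes that passed the filter on low values.

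Wildtype male Balb/c mice received an intraperitoneal injection of 2 mg of rabbit IgG. Control mice (n = 5) received preimmune IgG, and mice with experimental membranous nephropathy (MN) received IgG against THSD7A, a podocyte membrane protein, and were studied at day 1 (n = 4) or day 5 (n = 4). Controls of both days formed 1 group, and the labels do not give the day of each control mouse. Each library was made from the glomeruli of 1 mouse, isolated with magnetic beads, so all glomerular cell types contributed to the RNA.

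Apical-basal polarity is set by protein complexes that exclude each other from opposite ends of an epithelial cell. The PAR complex joins PAR3 scaffolds, PAR6 adapters and aPKC under the control of the GTPase Cdc42, the Crumbs complex joins a Crumbs transmembrane protein to PALS1 and PATJ, and Lgl and Scribble proteins hold the basolateral side. In podocytes, the epithelial cells of the glomerular filter, the slit diaphragm between foot processes is a modified junction to which PAR3 and aPKC are linked, and loss of aPKC or of Crumbs 2 in podocytes causes proteinuria.

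*Pals1* and *Pard3b* were lower at day 5 of MN than in controls, and the other 8 members did not pass the test at day 5. *Pals1* fell from a mean of 117 TPM to 70.1 TPM and *Pard3b* from 83.8 TPM to 47.6 TPM, where TPM is a transcript abundance corrected for length and scaled to a fixed total per library. At day 1, *Pals1* alone passed the test, with a call that was lost whenever a library was left out. No member passed the test between day 5 and day 1. A gene was called at a Benjamini-Hochberg adjusted p under 0.05 in limma and an absolute log2 fold change above 0.5, in 1 fit of 13 libraries over all 14322 genes on log2(scaled TPM + 0.5).

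Read against all tested genes, 1 of 10 members was called lower at day 1, where 0.0349% of the genes tested were called lower, and 2 of 10 at day 5, where 0.789% were. Between the days 0 of 10 members were called lower against 0.398% of the genes tested. An unadjusted p under 0.05 was reached by 2 of 10 members at day 1, beside 12.6% of all tested genes, by 4 of 10 at day 5, beside 20.1%, and by 3 of 10 between the days, beside 15.5%. Libraries of a group lay all below the 5 control libraries on the scaled TPM for 2 of 10 members at day 1, against 1.98% of the genes tested, and for 2 of 10 at day 5, against 4.36%. No share over all tested genes was computed for libraries lying all above the controls, so genes given below as above all controls are a description. The median log2 fold change of the members was −0.02 at day 1 and −0.07 at day 5, beside −0.0029 and −0.0032 over all tested genes. The contrasts of both days use the same control libraries and are not independent of each other. The members were chosen with earlier results of these data known, so their counts describe the set and do not test it against all genes.

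**Figure D1:**
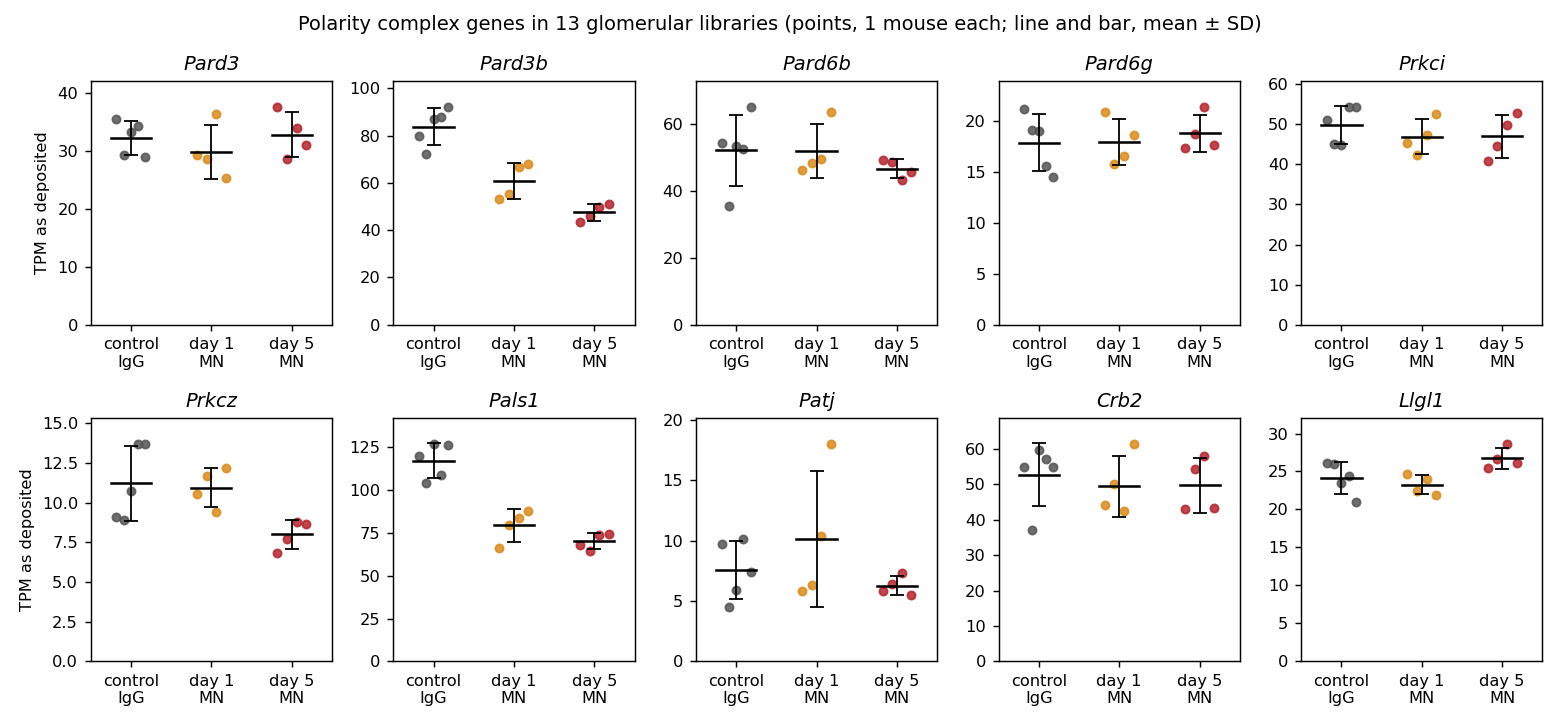
Deposited TPM (vertical axis, starting at 0 in each panel) of the 10 polarity genes in control IgG (n = 5), day 1 MN (n = 4) and day 5 MN (n = 4) libraries; points are mice, the long line is the mean and the bar the SD. *Pals1* and *Pard3b* lie below every control library at both days, and in the other panels both MN groups overlap with controls apart from *Prkcz* at day 5, whose highest library (8.78) was just under the lowest control library (8.90).

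The members stood at different levels within a glomerular library. In controls the mean TPM ran from 117 for *Pals1*, above 88.9% of the tested genes, through 83.8 for *Pard3b*, 52.7 for *Crb2*, 52.1 for *Pard6b*, 49.9 for *Prkci*, 32.2 for *Pard3*, 24.2 for *Llgl1*, 17.9 for *Pard6g* and 11.2 for *Prkcz* to 7.55 for *Patj*, above 27.5%. *Pals1* ranked first among the members in all 13 libraries, and *Pard3*, *Llgl1* and *Pard6g* kept ranks 6, 7 and 8 in all 13. *Crb2*, *Pard6b* and *Prkci* exchanged places from library to library and did not differ in level beyond their spread, and *Prkcz* and *Patj* exchanged ranks 9 and 10. *Pard3b* held rank 2 in all 5 control libraries and ranks 3 to 4 at day 5. Of each pair of paralogs, *Pard3b*, *Pard6b* and *Prkci* were the more abundant in all 13 libraries.

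Among the PAR3 scaffolds, *Pard3b* encodes the PAR3-like protein, a paralog of PAR3 that lacks the binding to aPKC. Its TPM in the 5 control libraries was 79.9, 72.3, 86.9, 87.8 and 92.0. At day 1 the 4 libraries held 53.1, 55.4, 66.8 and 67.9, and at day 5 they held 43.5, 46.0, 49.6 and 51.3. The 3 groups did not overlap: every day 1 library lay below every control library and every day 5 library below every day 1 library. At day 5 *Pard3b* fell by 0.77 on the log2 scale (SE 0.09, 95% confidence interval −0.97 to −0.58, adjusted p = 0.000191, limma with Benjamini-Hochberg adjustment). At day 1 its log2 fold change was −0.42 (interval −0.61 to −0.22) with an adjusted p of 0.145 in the same limma fit. Between the days the log2 difference was −0.36 (interval −0.56 to −0.15, adjusted p = 0.0746, limma), which also missed the threshold.

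*Pard3* encodes PAR3 itself, the scaffold that binds aPKC, PAR6, junctional adhesion molecules and nephrin. Its TPM was 35.4, 29.2, 33.2, 34.3 and 29.0 in controls, 29.2, 28.6, 36.4 and 25.3 at day 1, and 37.5, 28.6, 33.9 and 31.1 at day 5. The groups overlapped throughout. The log2 fold change at day 5 was 0.06 with a 95% interval of −0.17 to 0.29, which does not reach the interval of *Pard3b*. Within libraries the ratio of *Pard3b* to *Pard3* TPM was 2.26 to 3.17 in controls (median 2.56), 1.81 to 2.69 at day 1 (median 1.89) and 1.16 to 1.65 at day 5 (median 1.53). All 4 day 5 ratios lay below all 5 control ratios, while day 1 overlapped with controls. The ratios are a description and were not tested.

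Both PAR3 genes are large. On GRCm39 (GENCODE vM39), *Pard3b* lies at chr1:61677983-62681443 on the plus strand and *Pard3* at chr8:127790392-128338767 on the plus strand. The 250 bases before the RefSeq start site of *Pard3b* are shown because it had the largest fall of the members at day 5. They come from the RefSeq promoter table for GRCm38.p6 and were found once on the GRCm39 chromosome, at chr1:61677733-61677982 on the plus strand, ending at the GENCODE start of the gene.
Pard3b: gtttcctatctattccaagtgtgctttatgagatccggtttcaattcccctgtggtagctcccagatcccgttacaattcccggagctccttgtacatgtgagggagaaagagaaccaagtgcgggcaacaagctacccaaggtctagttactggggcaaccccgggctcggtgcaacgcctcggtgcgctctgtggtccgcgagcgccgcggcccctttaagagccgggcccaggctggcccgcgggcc
The stretch held 60.0% G and C, 17 CpG and no match to any of the letters searched, so none is in capitals. Of the 10 members, 8 had an entry in the table (not *Pals1* and *Pard6g*), and their RefSeq starts lay 0 to 414 bases from the GENCODE gene start, farthest for *Pard3*, so the stretches are not all upstream of the annotated gene. The letters GCGNGGGNG, the core bound by the zinc finger factors WT1 and EGR, were searched on both strands and found in 3 of these 8 (*Pard3*, *Pard6b* and *Prkci*), beside 10.6% of 32536 promoter stretches of the same length. The other letters searched on both strands were CAGCTG (an E-box, in 13.1% of promoters and 0 of 8 members), GTAAANA (forkhead, 10.9% and 0), TAATTA (LMX1B, 4.84% and 0), TGCTGA (a MAF half-site, 16.1% and 0) and GGAATG (TEAD, 12.6% and 1 member, *Prkci*). A match describes the letters and is not evidence of binding.

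The PAR6 adapters connect aPKC to active Cdc42. *Pard6b* TPM was 54.3, 35.5, 53.4, 52.4 and 65.1 in controls, 46.2, 48.3, 49.5 and 63.7 at day 1, and 49.3, 48.6, 43.4 and 45.6 at day 5. *Pard6g* TPM was 14.5 to 21.2 in controls, 15.8 to 20.9 at day 1 and 17.3 to 21.4 at day 5. Neither gene separated any of the groups. Log2 fold changes at day 5 were −0.10 for *Pard6b* (95% interval −0.43 to 0.23) and 0.11 for *Pard6g* (−0.13 to 0.35), and at day 1 they were 0.05 (−0.28 to 0.39) and 0.06 (−0.18 to 0.30). *Pard6b* lies at chr2:167922803-167943123 and *Pard6g* at chr18:80090070-80165531, both on the plus strand. The ratio of *Pard6b* to *Pard6g* had medians of 2.81, 3.02 and 2.58 in control, day 1 and day 5 libraries, with overlapping ranges.

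The aPKC isoforms, iota from *Prkci* and zeta from *Prkcz*, are the kinases of the PAR complex. *Prkci* (chr3:31049886-31107108, plus strand) stood at 44.9 to 54.3 TPM in controls, 42.3 to 52.6 at day 1 and 40.8 to 52.9 at day 5, and its log2 fold changes were −0.04 (95% interval −0.23 to 0.15) and −0.05 (−0.24 to 0.14). *Prkcz* (chr4:155344575-155445909, minus strand) held 9.12, 8.90, 10.7, 13.7 and 13.7 TPM in controls. At day 1 it held 10.5, 11.7, 9.43 and 12.2, and at day 5 it held 6.85, 7.72, 8.78 and 8.64. All day 5 libraries of *Prkcz* were lower than all control libraries as deposited, but the ranges met once the libraries were scaled to each other. They met through control replicate 2 alone, at 8.54 with a day 5 library at 8.56, and the other controls started at 8.91. The log2 fold change of *Prkcz* at day 5 was −0.41 (SE 0.15, interval −0.73 to −0.10), with an unadjusted p of 0.014 and an adjusted p of 0.125 in limma, so it was not called. Against day 1 the log2 difference was −0.44 (adjusted p = 0.176, limma).

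Within libraries the ratio of *Prkci* to *Prkcz* was 3.96 to 5.59 in controls (median 4.20), 3.62 to 5.02 at day 1 (median 4.32) and 5.66 to 6.12 at day 5 (median 5.86). The 4 day 5 ratios lay just above the highest control ratio. Of the 31-base words in *Prkcz* transcripts, 22.7% also occur in transcripts annotated to *Zfp974*, so the 2 genes may share reads. This is a share of words in GENCODE vM39 and not of reads, which the authors quantified on an Ensembl annotation. The extent of the uncertainty in *Prkcz* values is therefore not known. *Zfp974* had a log2 fold change of −0.21 at day 5 (adjusted p = 0.484, limma). For *Pard6b*, 29.3% of such words are shared with the predicted gene *Gm75669*, whose symbol was not among those of the expression data. No 31-base word was shared between members.

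**Figure D2:**
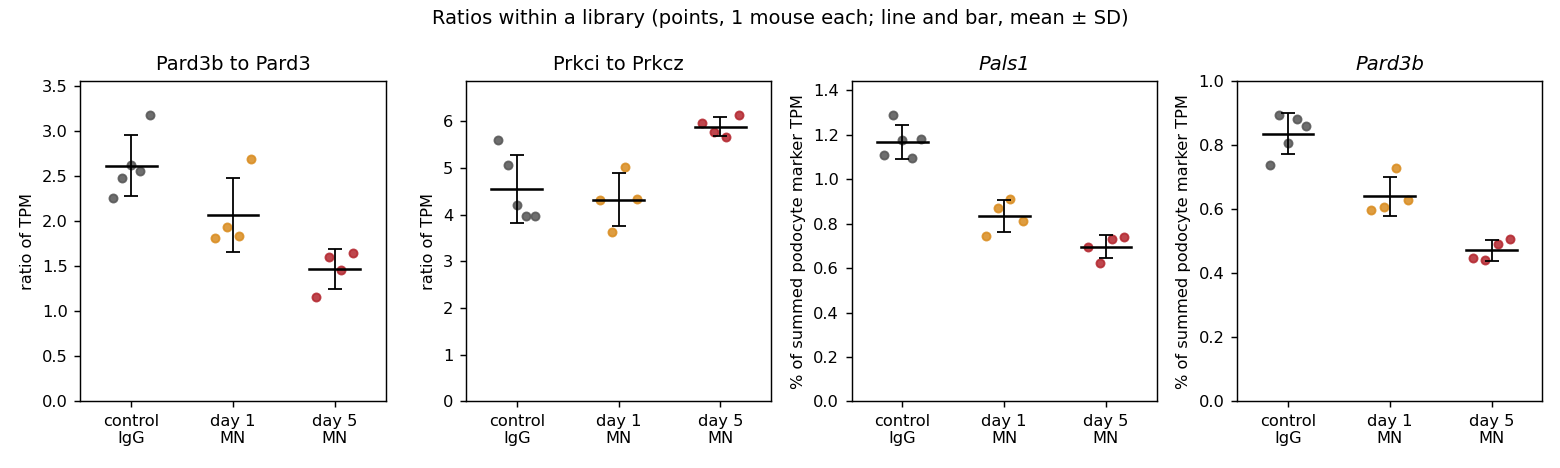
Ratios within a library for control IgG (n = 5), day 1 MN and day 5 MN (n = 4 each): TPM of *Pard3b* over *Pard3*, TPM of *Prkci* over *Prkcz*, and *Pals1* and *Pard3b* as a percentage of the summed TPM of 10 podocyte markers; points are mice, lines means, bars SD, and axes start at 0. The *Pard3b* ratio is at most 1.65 at day 5 against at least 2.26 in controls, the *Prkci* ratio is at least 5.66 at day 5 against at most 5.59 in controls, and *Pals1* takes at most 0.738% of the marker sum at day 5 against at least 1.09% in controls.

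In the Crumbs complex, *Pals1* encodes the adaptor that holds Crumbs and PATJ together. Its TPM was 120, 104.2, 127, 109 and 126 in controls, 66.2, 79.6, 83.7 and 87.9 at day 1, and 67.7, 64.6, 73.7 and 74.5 at day 5. Both MN groups lay wholly below the controls, with a gap from 87.9 to 104.2 at day 1, and the MN groups overlapped each other. *Pals1* fell by 0.70 on the log2 scale at day 5 (SE 0.09, 95% interval −0.89 to −0.51, adjusted p = 0.000374, limma with Benjamini-Hochberg adjustment). It fell by 0.52 at day 1 (SE 0.09, interval −0.71 to −0.33, adjusted p = 0.0452, limma), just past both thresholds. Without any 1 of the 13 libraries the day 1 call was lost, with log2 fold changes of −0.57 to −0.44 and adjusted p of 0.0217 to 0.147, whereas at day 5 the call held in all 13 such fits (−0.75 to −0.66). The difference between the days was −0.18 (interval −0.38 to 0.02, adjusted p = 0.374, limma).

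*Pals1* lies at chr12:78795006-78888211 on the plus strand. Of the 31-base words in its transcripts 9.78% occur in transcripts of other genes, most of them (872 of 11113 words) in *Atp6v1d*, a proton pump subunit on the opposite strand. Whether the reads were assigned by strand is not given in the sources used here. *Atp6v1d* stood at 56.7 to 67.0 TPM in controls, 57.9 to 61.2 at day 1 and 57.7 to 69.8 at day 5. Its log2 fold change was −0.01 at day 1 and 0.07 at day 5 (adjusted p 0.981 and 0.723, limma), so the partner was not called at either day. *Pard3b* shares 4.81% of its words, mostly with the antisense gene *Pard3bos1*, whose symbol was not among those of the expression data.

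*Crb2* encodes the Crumbs protein of podocytes, a transmembrane protein of the slit diaphragm region. Its TPM was 54.7, 37.1, 59.6, 57.1 and 54.9 in controls, 44.1, 49.98, 42.3 and 61.4 at day 1, and 42.9, 54.4, 58.0 and 43.4 at day 5. The groups overlapped, and control replicate 2 stood lowest of all 13 libraries. Log2 fold changes were −0.04 at both days (95% interval −0.37 to 0.29 at each). *Patj*, which encodes the PDZ scaffold at the end of the complex, was at 9.75, 4.53, 5.91, 10.2 and 7.41 TPM in controls, 5.83, 6.33, 10.4 and 18.01 at day 1, and 5.85, 6.43, 7.29 and 5.54 at day 5. Day 1 of *Patj* was spread over a wide range by replicate 4, the library at 18.01. Its log2 fold changes, 0.36 (interval −0.28 to 1.00) and −0.17 (−0.80 to 0.47), carried the widest intervals of the 10 members. Without day 1 replicate 4 the day 1 value was 0.050, over all fits without 1 library it ran from 0.050 to 0.56 at day 1 and from −0.33 to −0.055 at day 5, and with a tubule marker score as a covariate it was 0.00054 at day 1. *Crb2* lies at chr2:37666261-37689115 and *Patj* at chr4:98284022-98607840, both on the plus strand.

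The proportions of Crumbs complex transcripts are given as a description. The ratio of *Pals1* to *Crb2* TPM was 1.91 to 2.81 in controls (median 2.19), 1.43 to 1.98 at day 1 (median 1.55) and 1.19 to 1.72 at day 5 (median 1.42). Day 5 lay below all controls and day 1 overlapped with them. The ratio of *Pals1* to *Patj* had medians of 17.1 in controls, 9.70 at day 1 and 10.8 at day 5, and both MN groups overlapped with controls.

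*Llgl1* (chr11:60590464-60605013, plus strand) encodes a basolateral Lgl protein that aPKC phosphorylates and displaces. Its TPM was 26.2, 26.0, 23.5, 24.4 and 20.9 in controls, 24.7, 22.5, 24.0 and 22.0 at day 1, and 25.5, 26.7, 28.6 and 26.1 at day 5. Day 5 overlapped with controls as deposited and lay above them after scaling, at 25.9 to 27.5 against 21.3 to 25.6. The log2 fold change at day 5 was 0.18 (SE 0.06, 95% interval 0.04 to 0.32, adjusted p = 0.131, limma) and the interval lies under the fold threshold. At day 1 it was −0.01 (interval −0.15 to 0.13).

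**Figure D3:**
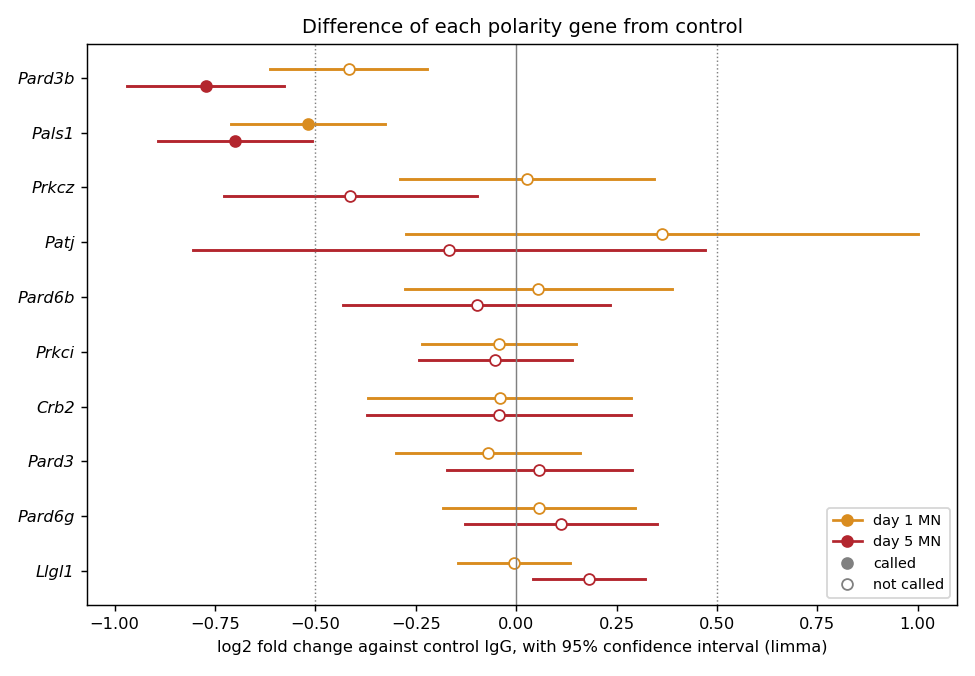
Log2 fold change against control IgG (horizontal axis) of the 10 members at day 1 and day 5 of MN with 95% confidence intervals from limma; filled points passed the test and dotted lines mark the threshold of 0.5. *Pard3b* (−0.77) and *Pals1* (−0.70) are filled at day 5, *Pals1* (−0.52) at day 1, and the intervals of *Patj* are the widest.

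Bulk RNA cannot tell fewer cells of a type from less RNA per cell, so the members were set beside markers of glomerular cells. The 10 podocyte markers summed to 8094 to 10820 TPM in controls, 8867 to 10819 at day 1 and 9740 to 10374 at day 5, and none was at 0. *Pals1* made up 1.09% to 1.29% of that sum in controls, 0.747% to 0.911% at day 1 and 0.623% to 0.738% at day 5. *Pard3b* made up 0.739% to 0.893%, 0.598% to 0.728% and 0.443% to 0.508%. Both lay below all controls at both days on this scale, while the other 8 members overlapped with controls. The podocyte markers did not all move alike at day 5. *Cdkn1c*, a cell cycle inhibitor, was called higher (mean 1245 TPM in controls and 1997 at day 5), and *Plce1*, a phospholipase, was called lower. *Synpo*, an actin-associated protein of foot processes, went from a mean of 1451 TPM to 1034, with all day 5 libraries below all controls, a log2 fold change of −0.46 and an adjusted p of 0.00197 in limma, and missed the call by the fold threshold alone. Without *Cdkn1c*, a choice made after seeing the data, the other 9 markers summed to 7063 to 9460 TPM in controls, 7425 to 9371 at day 1 and 7873 to 8171 at day 5. On that scale *Pals1* lay below all controls at both days and *Pard3b* at day 5, while *Pard3b* at day 1 overlapped with controls (0.709% to 0.880% against 0.845% to 1.02%). The share of all tested genes below all controls was not computed on either marker scale, so these separations are a description.

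Other cell types differed between some groups. The 8 tubule markers summed to 382 to 960 TPM in controls, 743 to 1308 at day 1 and 544 to 696 at day 5. All 8 were higher on average at day 1 (median log2 fold change 0.71), with none called in limma. At day 1, 5 of the 8 had an unadjusted p under 0.05, beside 12.6% of all tested genes. Day 1 replicate 4 had both the highest tubule sum and the highest *Patj* and *Crb2* values. Control replicate 2 had the lowest tubule sum, the lowest podocyte sum and the lowest *Pals1*, *Pard3b*, *Pard6b*, *Prkcz*, *Crb2* and *Patj* of the controls. With a tubule marker score as a covariate, *Pals1* had a log2 fold change of −0.62 at day 1 but an adjusted p of 0.0925 in limma and was not called. At day 5 the same fit called *Pals1* (−0.69) and *Pard3b* (−0.76), and the difference of *Pard3b* between the days was −0.17. The 4 parietal epithelial markers went in different directions at day 5: *Krt7*, which made up most of their summed TPM, was called lower (log2 fold change −0.89), *Cldn1* was called higher (1.08), and *Pax2* (0.09) and *Pax8* (0.22) were not called. Of the 8 endothelial markers 7 had a positive log2 fold change at day 5 (median 0.16) and none was called in limma. At day 5, 3 of the 8 had an unadjusted p under 0.05, beside 20.1% of all tested genes. *Emcn*, an endothelial sialomucin, lay above all controls at day 5 (0.29, adjusted p = 0.0127, limma) under the fold threshold. The endothelial sum, 7713 to 12093 TPM over the 13 libraries with overlap between groups, was led by *Plat* (3074 to 6429 TPM). Mesangial markers summed to 883 to 1373 TPM and leukocyte markers to 3.40 to 10.2, and the 3 cell cycle markers summed to 10.8 to 20.3 in controls and 72.8 to 107 at day 5. The part of these marker differences in the members' day 5 values was not tested.

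Wider lists of polarity genes, chosen with earlier results of these data known, were read against all tested genes, of which 0.0908% were called at day 1, 3.21% at day 5 (347 higher and 113 lower) and 1.81% between the days. Of the other PAR, Crumbs and Scribble genes 15 of 17 were tested, none was called at day 1 in limma, and *Mpp3* was called lower at day 5. An unadjusted p under 0.05 was reached by 3 of these 15 genes at day 1 and 6 at day 5, beside the shares of 12.6% and 20.1% over all genes. *Mpp3*, a membrane-associated guanylate kinase related to *Pals1*, had 26.0 to 43.6 TPM in controls, 25.6 to 41.2 at day 1 and 11.4 to 25.4 at day 5, and fell by 0.85 on the log2 scale (SE 0.21, adjusted p = 0.0327, limma). The medians of this list were −0.08 at day 1 and −0.10 at day 5. Of 15 genes for PAR1 kinases, the PAR4 kinase LKB1 with its cofactors and the PAR5 (14-3-3) proteins, none was called at either day in limma, with 1 of 15 at day 1 and 4 of 15 at day 5 at an unadjusted p under 0.05 (12.6% and 20.1% of all genes). At day 5 *Mark1* (log2 fold change 0.33, adjusted p = 0.0377, limma) and *Ywhae* (0.19, adjusted p = 0.0253, limma) lay above all controls, under the fold threshold.

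Of 11 genes around Cdc42 and Rac, *Cdc42bpg* and *Pak1* were called lower at day 5 and *Cdc42bpg* also at day 1. An unadjusted p under 0.05 was reached by 1 of 11 at day 1 and 5 of 11 at day 5, beside 12.6% and 20.1% of all tested genes. *Cdc42bpg*, which encodes the Cdc42-binding kinase MRCK gamma, held 84.7 to 92.5 TPM in controls, 52.9 to 68.2 at day 1 and 42.1 to 50.4 at day 5, without overlap between any of the groups. It fell by 0.52 at day 1 (adjusted p = 0.0083, limma) and by 0.87 at day 5 (SE 0.07), and the log2 difference between the days was −0.35 (adjusted p = 0.016, limma), under the fold threshold. This order of the groups is the one seen for *Pard3b*. At day 5 *Cdc42* and *Rac1* were not called (log2 fold changes 0.13 and 0.18). *Iqgap1*, a Cdc42 and Rac effector, had an adjusted p of 0.004 at day 5 in limma but a log2 fold change of 0.37.

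Of 18 junction partners, *Magi1* was called higher at day 5 and none was called at day 1 in limma. An unadjusted p under 0.05 was reached by 4 of 18 at day 1 and 5 of 18 at day 5, beside 12.6% and 20.1% of all tested genes. *Magi1* encodes a junctional PDZ scaffold and had 4.75 to 5.55 TPM in controls, 6.39 to 10.1 at day 1 and 7.60 to 10.2 at day 5, so both MN groups lay above all controls. It rose by 0.76 on the log2 scale at day 5 (SE 0.14, adjusted p = 0.0048, limma), and at day 1 its log2 fold change was 0.59 (adjusted p = 0.178, limma). *Nphs1*, which encodes the slit diaphragm protein nephrin that PAR3 binds, had log2 fold changes of −0.13 and −0.18 (limma, adjusted p 0.694 and 0.479) and was not called. *Magi2* had the lowest log2 fold change of this list at day 5 (−0.60, adjusted p = 0.0661, limma). Its range overlapped with controls through control replicate 2 alone, and it was not called. The other controls held 136 to 152 TPM, above all day 5 libraries (68.1 to 95.2). *Jam2* lay above all controls at day 5 (0.36, adjusted p = 0.0345, limma) under the fold threshold. Between day 5 and day 1 no gene of the 4 wider lists was called in limma, while 2, 3, 4 and 3 genes, in the order in which the lists were described, had an unadjusted p under 0.05, beside 15.5% of all tested genes.

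**Figure D4:**
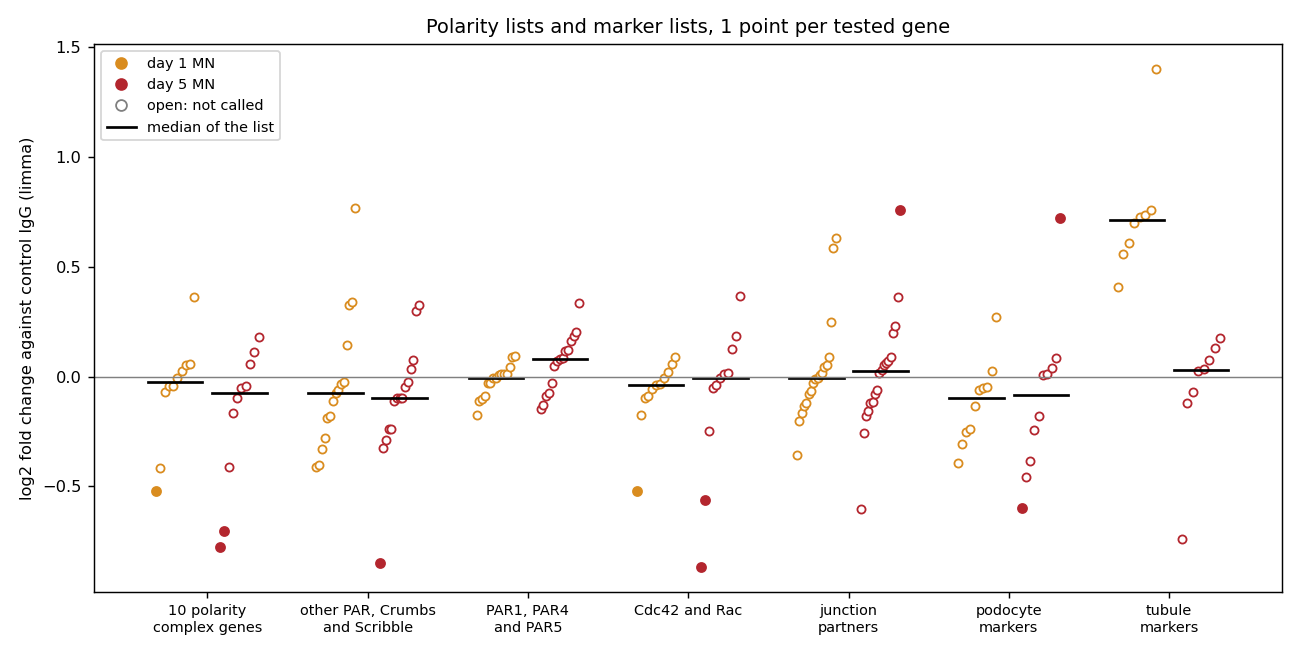
Log2 fold change against control IgG (vertical axis, limma) of every tested gene of the 10 members, the 4 wider polarity lists and the podocyte and tubule marker lists, at day 1 and day 5 of MN; filled points were called and black lines are list medians. The filled points among the polarity lists are *Pals1*, *Pard3b*, *Mpp3*, *Cdc42bpg*, *Pak1* and, above 0, *Magi1*, and the tubule markers lie above 0 at day 1 (median 0.71).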

How the data were processed

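RNA from isolated glomeruli was sequenced as paired 150 bp reads, 1 library per mouse. Per the labels and methods, the authors used FastQC 0.11.9, Trimmomatic 0.39 and Kallisto 0.46.2 with GRCm39 transcripts, and deposited TPM values per gene symbol. TPM keep no read depth, so depth is unknown and no counting interval is given. Library totals were 989774 to 996064 TPM. The study's tests of counts were not used here.

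Libraries were brought to a common scale by median-of-ratios factors (0.955 to 1.04). The tests used log2(scaled TPM + 0.5), which understates changes of low genes, and kept genes that reached a TPM of 1 in 4 or more of 13 libraries. The model was limma 3.58.1 under R 4.3.3 (1 fit, mean-variance trend, Benjamini-Hochberg within each contrast), with calls at an adjusted p below 0.05 plus a log2 fold change beyond 0.5 in either direction. The procedure was tested on simulated data. The p-values set each difference against the spread between mice within groups, and the control group holds mice of both days.

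The members and lists were chosen with earlier results of these data known. All 10 members are named, and from the wider lists the genes called in any contrast. *Cdc42*, *Rac1*, *Iqgap1*, *Mark1*, *Ywhae*, *Jam2*, *Magi2*, *Nphs1* and the read-sharing partners were named after their values were seen. Loci come from GENCODE vM39 and promoters from RefSeq. Alternatives changed the pseudocount, scaling, filter, trend, samples in the fit, replicate block, tubule covariate, weights and call rule, or left out 1 library.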

Additional observations from a re-analysis of the deposited data

Results flagged for a closer look

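*Crb2* in control replicate 2 stood apart from the other controls, at 37.1 TPM against 54.7 to 59.6. The gap to its nearest neighbour took a share of 0.784 of the group's range, above Dixon's critical value of 0.71 for 5 samples. Chance flags about 1 in 20 groups, and 1 of 30 groups of member values was flagged. The same library had the lowest podocyte marker sum (8094 TPM) and tubule marker sum (382 TPM) of the controls. Their part in the *Crb2* value was not tested.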

How the results depend on the processing

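*Pals1* and *Pard3b* were called lower at day 5 under every alternative run and in all 13 fits that left out a library, and 0 members were called between the days in any of them. At day 1 the 1 member called, *Pals1*, became 0 members under equal podocyte markers, no filter, no trend, only the compared groups, the replicate block and the tubule covariate, and 0 in every fit without 1 library (0 to 0). Over the alternatives its log2 fold change ran from −0.62 to −0.40 with adjusted p of 0.0238 to 0.209 in limma.

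All genes called numbered 13 at day 1, and 25 under equal podocyte markers, 6 without the filter, 7 without the trend, 2 with only the compared groups, 149 with the replicate block, 1 with the tubule covariate and 3 to 218 without 1 library (218 without control replicate 5). Control replicate 5 alone carries its number, so the replicate block fits it exactly and takes it out of the contrasts. At day 5 the count of 460 became 876 by adjusted p alone, and 326 to 474 without 1 library. Between the days the count of 259 became 153 when every library had to reach a TPM of 1, 423 with only the compared groups, 142 with the tubule covariate and 150 to 437 without 1 library. Equal podocyte markers shifted the median of all genes by 0.11 at day 1 and 0.09 at day 5.

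The sign changed only for members that were not called. At day 1, equal podocyte markers gave 0.047 for *Pard3*, 0.076 for *Prkci*, 0.076 for *Crb2* and 0.11 for *Llgl1*. The tubule covariate gave 0.019 for *Pard3*, −0.28 for *Pard6b*, −0.34 for *Prkcz* and 0.086 for *Llgl1*. The replicate block gave −0.00053 for *Pard6g* and 0.0022 for *Prkci*, and *Prkcz* was −0.017 as deposited and −0.0011 under quantile normalization. At day 5, equal podocyte markers gave 0.0013 for *Pard6b*, 0.047 for *Prkci* and 0.056 for *Crb2*, the block 0.0013 for *Pard6b*, and array weights −0.013 for *Pard3*. Between the days, the tubule covariate gave 0.21 for *Pard6b*, −0.039 for *Pard6g*, 0.19 for *Prkci* and 0.34 for *Crb2*. TPM as deposited gave 0.0011 for *Prkci* and 0.0093 for *Crb2*, weights 0.015 for *Prkci*, and quantile normalization 0.0025 for *Crb2*.

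Without 1 library the log2 fold changes at day 1 ran from −0.16 to 0.0045 for *Pard3*, −0.084 to 0.15 for *Pard6b*, −0.017 to 0.12 for *Pard6g*, −0.098 to 0.0031 for *Prkci*, −0.055 to 0.12 for *Prkcz*, −0.17 to 0.037 for *Crb2* and −0.041 to 0.022 for *Llgl1*. At day 5 they ran from −0.028 to 0.11 for *Pard3*, −0.24 to 0.00076 for *Pard6b* and −0.17 to 0.025 for *Crb2*, and between the days from −0.061 to 0.046 for *Prkci* and −0.080 to 0.11 for *Crb2*. The causes were not tested. Replicate numbers mark different animals and did not pair the libraries: 12 pairs with a shared number had correlations of −0.0563 to 0.0913, and 2 of 12 libraries correlated best with their own number.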
